A study of Mus musculus with 10 samples.

Results

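Cx3cr1 macrophages of mouse SW1 melanoma tumors were described here as the barcodes that carried complement C1q transcripts together with the fractalkine receptor gene Cx3cr1 and lacked the marks of neighbouring macrophage classes. A barcode entered the group when it had at least 1000 detected genes, at most 10% of its UMIs (unique molecular identifiers, 1 per captured transcript) from mitochondrial genes, at least 10 UMIs of C1qa, C1qb and C1qc together and at least 1 UMI of Cx3cr1. It also had at most 2 UMIs of Il1a, Cxcl1 and Tnf together, at most 2 UMIs of the cell cycle genes Mki67, Top2a and Birc5 together, and 0 UMIs of the T cell genes Cd3e, Cd3d and Cd3g, and it met a further limit that is not reported here. The rule took 734 of the 41936 barcodes in the 5 gene expression libraries, of which 23893 passed the gene and mitochondrial limits and 2955 also had enough C1q and none of the T cell genes and so counted as macrophage barcodes. Each macrophage barcode was placed in 1 class only, in a fixed order. The cycling class, taken first, held the 539 with more than 2 cell cycle UMIs. An inflammatory class of 559 was taken from those that remained after the earlier steps, by more than 2 UMIs of the 3 inflammatory genes, and the Cx3cr1-undetected class was the 623 that met the other limits of the group but had 0 UMIs of Cx3cr1.

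Macrophages that carry CX3CR1 read the membrane-bound and shed chemokine fractalkine, and the receptor is known from patrolling monocytes, microglia and resident macrophages of many tissues. C1q genes mark mature tissue macrophages, in which C1q opens the classical complement pathway and helps the uptake of dying cells. MHC class II molecules, made under the control of the coactivator CIITA and loaded with peptide in the endosomal pathway, let macrophages present antigen to CD4 T cells. In tumors, C1q macrophages are commonly set apart from macrophages that express hypoxia and lipid handling genes and from macrophages that make inflammatory cytokines.

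The tumors grew from SW1 melanoma cells placed under the skin of the right flank of female C3H/HeJ mice that were 4 to 6 weeks old. After 10 days of growth per the labels (the study's methods give a longer time), 1 cohort was taken as control day 0, and the others drank control water or water with the sugar L-fucose (L-fuc) for 7 or 21 days. The L-fuc dose was 100 mM by the study's methods and 1 field of the labels, while another field gives a different unit. CD45+ cells were sorted from the tumors of 3 mice at day 0 and 6 mice in each later cohort by the extraction protocol (another field of the labels gives 5 per group), pooled, and made into 1 droplet library per condition (control at day 0, then control and L-fuc at day 7, then control and L-fuc at day 21), with a matched T cell receptor library. With 1 pooled library per condition, differences between conditions have no replicate check and no test. They are given as values with exact intervals that cover counting error only. Every animal carried a tumor, so no tumor-free macrophage was measured.

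The 5 libraries held 43, 265, 215, 144 and 67 Cx3cr1 macrophages, in the order of the conditions above, which is kept below. Their summed depth was 552077, 1759503, 2329256, 1566717 and 954905 UMIs, and the median barcode held 12406, 5864, 9861, 8566 and 10921 UMIs. Values per gene are UMI counts scaled to a total of 1000000 UMIs per sum (CPM). The genes of the rule were at 522, 389, 412, 437 and 539 CPM for Cx3cr1, and C1qa was at 11926, 5671, 7944, 8693 and 8102 CPM, and both are given as description because the barcodes were selected on them. The median barcode held 365, 66, 186, 190.5 and 207 C1q UMIs, so the group was shallowest and lowest in C1q at control day 7. The macrophage genes that the rule did not use were present in each library: Csf1r, the receptor of the macrophage growth factor CSF1, at 413, 285, 334, 396 and 376 CPM, Adgre1 (F4/80) at 313, 178, 188, 241 and 237 CPM, and the membrane protein gene Ms4a7 at 1969, 759, 1050, 1020 and 1178 CPM.

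Many barcodes stood close to the limits of the rule. Cx3cr1 was held by exactly 1 UMI in 10, 101, 58, 36 and 13 barcodes, which is 38.1% of the group at control day 7 and 19.4% at L-fuc day 21. Just inside the C1q limit, with 10 to 14 C1q UMIs, lay 1, 23, 10, 2 and 5 barcodes, and 0, 23, 17, 2 and 1 barcodes that met every other limit held 5 to 9 C1q UMIs. Just outside the inflammatory limit, 3, 13, 17, 16 and 3 barcodes held exactly 3 UMIs of the inflammatory genes. Barcodes that met every other limit but held a Cd3 UMI numbered 16, 110, 94, 9 and 1. Scrublet, a caller of droplets with 2 cells, marked 0, 8, 3, 0 and 0 of the barcodes. Of the barcode sequences in the group, 1 occurred in both day 21 libraries, and the control day 7 and L-fuc day 7 libraries as a whole shared 433 barcodes, 2.83% of the smaller library.

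RNA of tumor cells was spread unevenly over the libraries and stood out at control day 7. At least 1 UMI of a list of 8 tumor markers or of the matrix gene Sparc was found in 20.9%, 83.0%, 38.1%, 10.4% and 20.9% of Cx3cr1 macrophages and in 2.40%, 83.4%, 32.3%, 7.69% and 22.7% of T cells of the same libraries. T cells should lack these genes, and only at day 0 was the share in Cx3cr1 macrophages far from that in T cells. The tumor markers summed to 18.1, 213, 96.6, 26.8 and 6.28 CPM, led by the neural crest factor Sox10 at 16.3, 113, 56.7, 11.49 and 3.14 CPM, with Tyr at 0 in each library. Sparc itself was at 114, 1049, 262, 185 and 33.5 CPM. It is also on the list of microglia-type genes used below, so a Sparc UMI alone does not mark tumor RNA.

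Other cell types left traces as well, and single barcodes carried some of them. The 5 red cell genes summed to 0, 1091, 2446, 2236 and 5.24 CPM, led by Hbb-bs. At control day 21 1 barcode held 2402 of the 2413 Hbb-bs UMIs, whereas at L-fuc day 7 196 of 215 barcodes had at least 1. The 4 NK cell genes summed to 0, 89.8, 595, 1.91 and 33.5 CPM, led by the granzyme gene Gzma, which had 78 UMIs in 35 barcodes at control day 7 and 1076 UMIs in 34 barcodes at L-fuc day 7. At L-fuc day 21 17516 of the 17518 UMIs of the immunoglobulin gene Igkv6-13 came from 1 barcode, as did 3320 of the 3362 UMIs of Jchain and 2151 of the 2208 UMIs of Igkc. The other marker lists summed to 36.2, 15.3, 23.2, 51.7 and 75.4 CPM for B cells, 12.7, 57.4, 40.4, 13.4 and 18.9 CPM for T cells, 30.8, 66.5, 48.9, 44.0 and 51.3 CPM for neutrophils, and at most 101 CPM in any library for fibroblasts, endothelial cells, mast cells, and the cDC1, cDC2, mregDC and pDC classes of dendritic cells. Gm42418, a transcript that overlaps ribosomal RNA, took 10145, 58811, 55026, 21135 and 33702 CPM. The part of these sources in the results below was not tested beyond the values given with the tumor barcodes removed and with each gene's largest barcode left out. Removing every barcode with a tumor marker or Sparc UMI left 34, 45, 133, 129 and 53 Cx3cr1 macrophages.

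**Figure D1:**
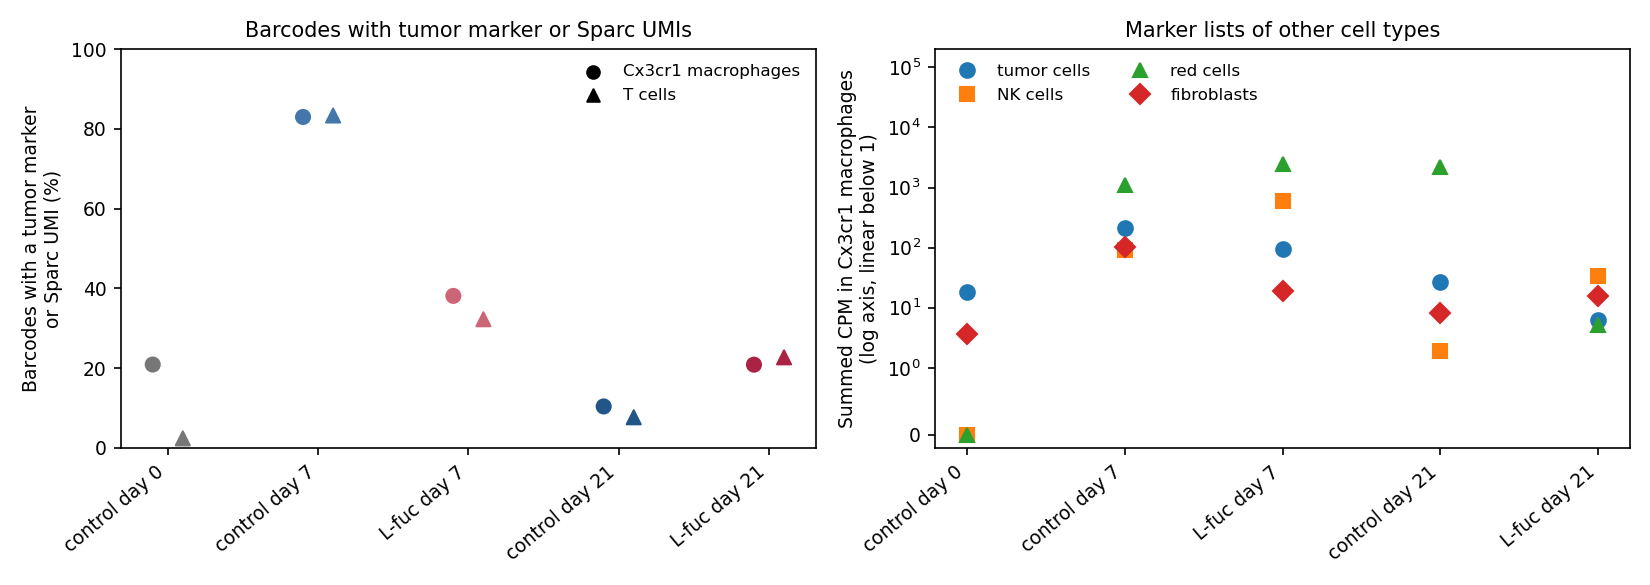
RNA of other cells in Cx3cr1 macrophages by library. Left, percent of barcodes with at least 1 UMI of a tumor marker or Sparc in Cx3cr1 macrophages and in T cells of the same library; right, summed CPM of the tumor, NK cell, red cell and fibroblast marker lists on an axis that is linear near 0 and logarithmic above. The control day 7 library is high in both cell types, at 83.0% and 83.4%.

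The libraries set L-fuc in drinking water against control over time, and the first comparison concerned abundance. Cx3cr1 macrophages made up 16.04% (95% exact binomial interval 11.9 to 21.0), 26.3% (23.6 to 29.2), 23.3% (20.6 to 26.2), 28.9% (24.9 to 33.1) and 25.7% (20.5 to 31.4) of macrophage barcodes. The share was lowest at day 0, and at day 7 and day 21 the intervals of L-fuc and control overlapped. As a share of barcodes that passed the gene and mitochondrial limits the group was at 3.79%, 1.86%, 3.22%, 12.4% and 10.5%, so it was higher at day 21 than at day 7 in both arms, and this share also moves with how many barcodes of other cells each library held.

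Detection of Cx3cr1 depends on depth, so the macrophage barcodes were also thinned to 2000 UMIs each. At that depth 32.5% (26.9 to 38.4), 32.6% (29.7 to 35.6), 26.8% (23.9 to 29.8), 38.9% (34.6 to 43.4) and 46.7% (40.4 to 53.0) of all macrophage barcodes, whatever their class, had a Cx3cr1 UMI. In T cells, a lymphocyte class with little Cx3cr1 as a whole, the share at the same depth was 1.73%, 3.80%, 4.33%, 8.11% and 4.55%. The macrophage share stood above the T cell share in all 5 libraries and was highest at day 21. Without thinning it was 59.7%, 54.8%, 50.8%, 69.7% and 73.2%, at median depths of 13311, 6607.5, 9564, 11258 and 16462 UMIs per macrophage barcode.

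**Figure D2:**
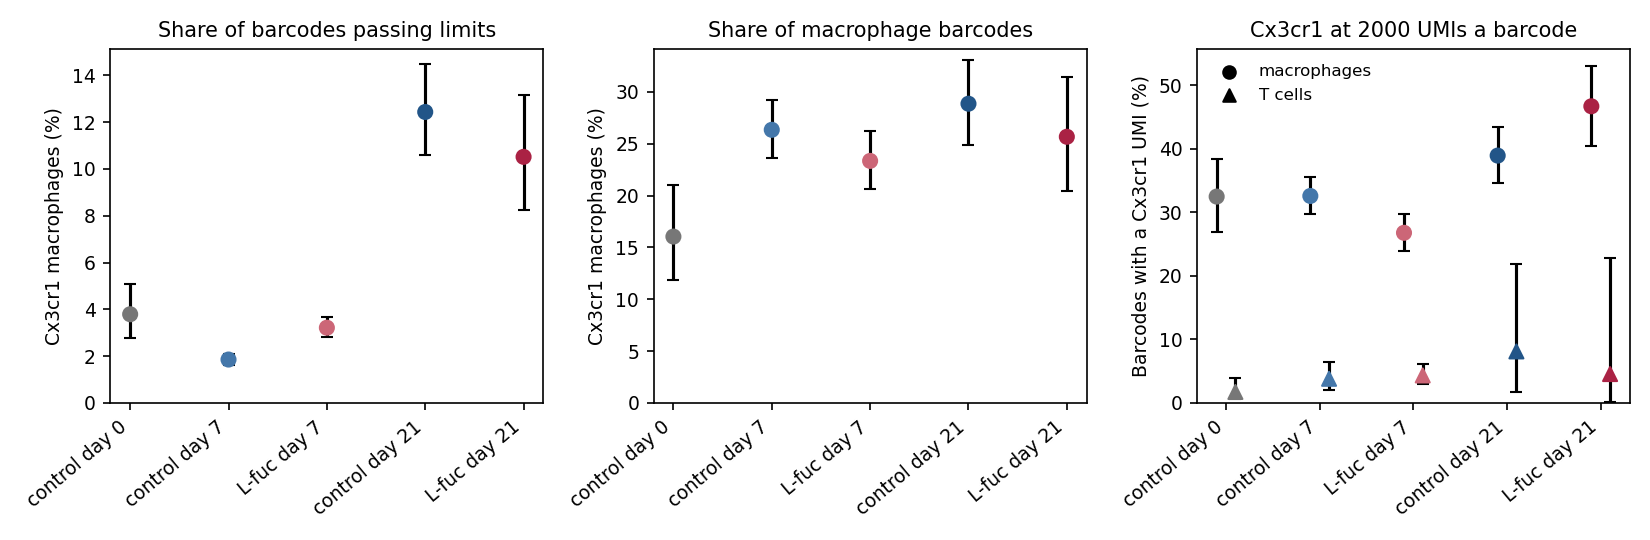
Abundance of Cx3cr1 macrophages and detection of Cx3cr1 by library, with 95% exact binomial intervals. The panels give the percent of barcodes past the gene and mitochondrial limits, the percent of macrophage barcodes, and the percent of macrophage and T cell barcodes with a Cx3cr1 UMI at 2000 UMIs; the share of macrophage barcodes lies between 16.04% and 28.9%.

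The genes of MHC class II presentation were among the most abundant of the group. H2-Eb1 and H2-Aa are shown by their promoters because the results turn on them. In the RefSeq annotation of the mouse reference (GRCm38.p6, a strain other than C3H/HeJ), H2-Eb1, the class II beta chain of the E molecule, starts after chr17:34305747-34305866 on the plus strand, and H2-Aa, the alpha chain of the A molecule, starts after chr17:34287824-34287943 on the minus strand. The 120 bases before each gene start are given 5′ to 3′, and capitals mark CTGATTGG, the letters of the Y box that the factor NF-Y reads in class II promoters.
H2-Eb1 promoter: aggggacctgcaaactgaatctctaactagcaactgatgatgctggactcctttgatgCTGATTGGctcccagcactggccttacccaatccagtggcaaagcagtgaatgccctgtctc
H2-Aa promoter: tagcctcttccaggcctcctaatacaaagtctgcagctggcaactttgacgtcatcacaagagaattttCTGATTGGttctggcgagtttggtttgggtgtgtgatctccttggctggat
The letters end 54 bases before the start of H2-Eb1 and 43 bases before that of H2-Aa. On either strand of the 300 bases around a gene start (250 before, 50 after) they occur in 1346 of 32851 mouse promoters, 4.10%, and in 4 of the 13 class II presentation genes of the list of 18 that had a promoter entry (H2-Aa, H2-Eb1, H2-Eb2 and H2-Oa).

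H2-Eb1 was at 14612, 6251, 11323, 8173 and 8317 CPM. It was highest at day 0 and lowest at control day 7, with L-fuc day 7 between them and the day 21 libraries close to each other, and 100%, 97.4%, 98.6%, 95.8% and 98.5% of barcodes had at least 1 UMI. H2-Aa was at 13257, 6020, 10755, 8227 and 7842 CPM, also highest at day 0 and lowest at control day 7. Cd74, the invariant chain that guides class II molecules to the endosome, was at 51683, 19952, 32518, 26642 and 25709 CPM. H2-DMb2, a chain of the peptide exchange factor H2-DM, was at 625, 157, 337, 430 and 400 CPM, and the coactivator gene Ciita at 50.7, 58.0, 81.6, 76.6 and 80.6 CPM, lowest at day 0.

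L-fuc over control at day 7 was 0.86 (95% exact interval for counting error 0.82 to 0.89) for H2-Eb1 on the log2 scale, 0.84 (0.80 to 0.87) for H2-Aa, 0.97 for H2-Ab1, 0.70 for Cd74, 1.10 (0.90 to 1.31) for H2-DMb2 and 0.49 (0.14 to 0.85) for Ciita. Of the 16 class II presentation genes with at least 30 UMIs in the pair, 14 were higher and 2 lower with L-fuc, and the median log2 ratio was 0.63, beside −0.21 over all 8744 genes measured. The 2 lower genes were the endosomal proteases Ctsl (−0.39) and Lgmn (−0.04). The median was 0.39 without the tumor barcodes and 0.42 when libraries were scaled to 13 macrophage identity genes, and H2-DMb2 lay between 0.89 and 1.354 over the alternatives of scaling, weighting and barcodes kept, and H2-Eb1 between 0.57 and 1.11. At day 21 the class II list was even, with 8 of 15 genes higher and 7 lower and a median of 0.02, and H2-Eb1 differed by 0.03 (−0.02 to 0.07). Whether the day 7 and day 21 ratios differ was not tested, since each rests on 1 library per arm.

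**Figure D3:**
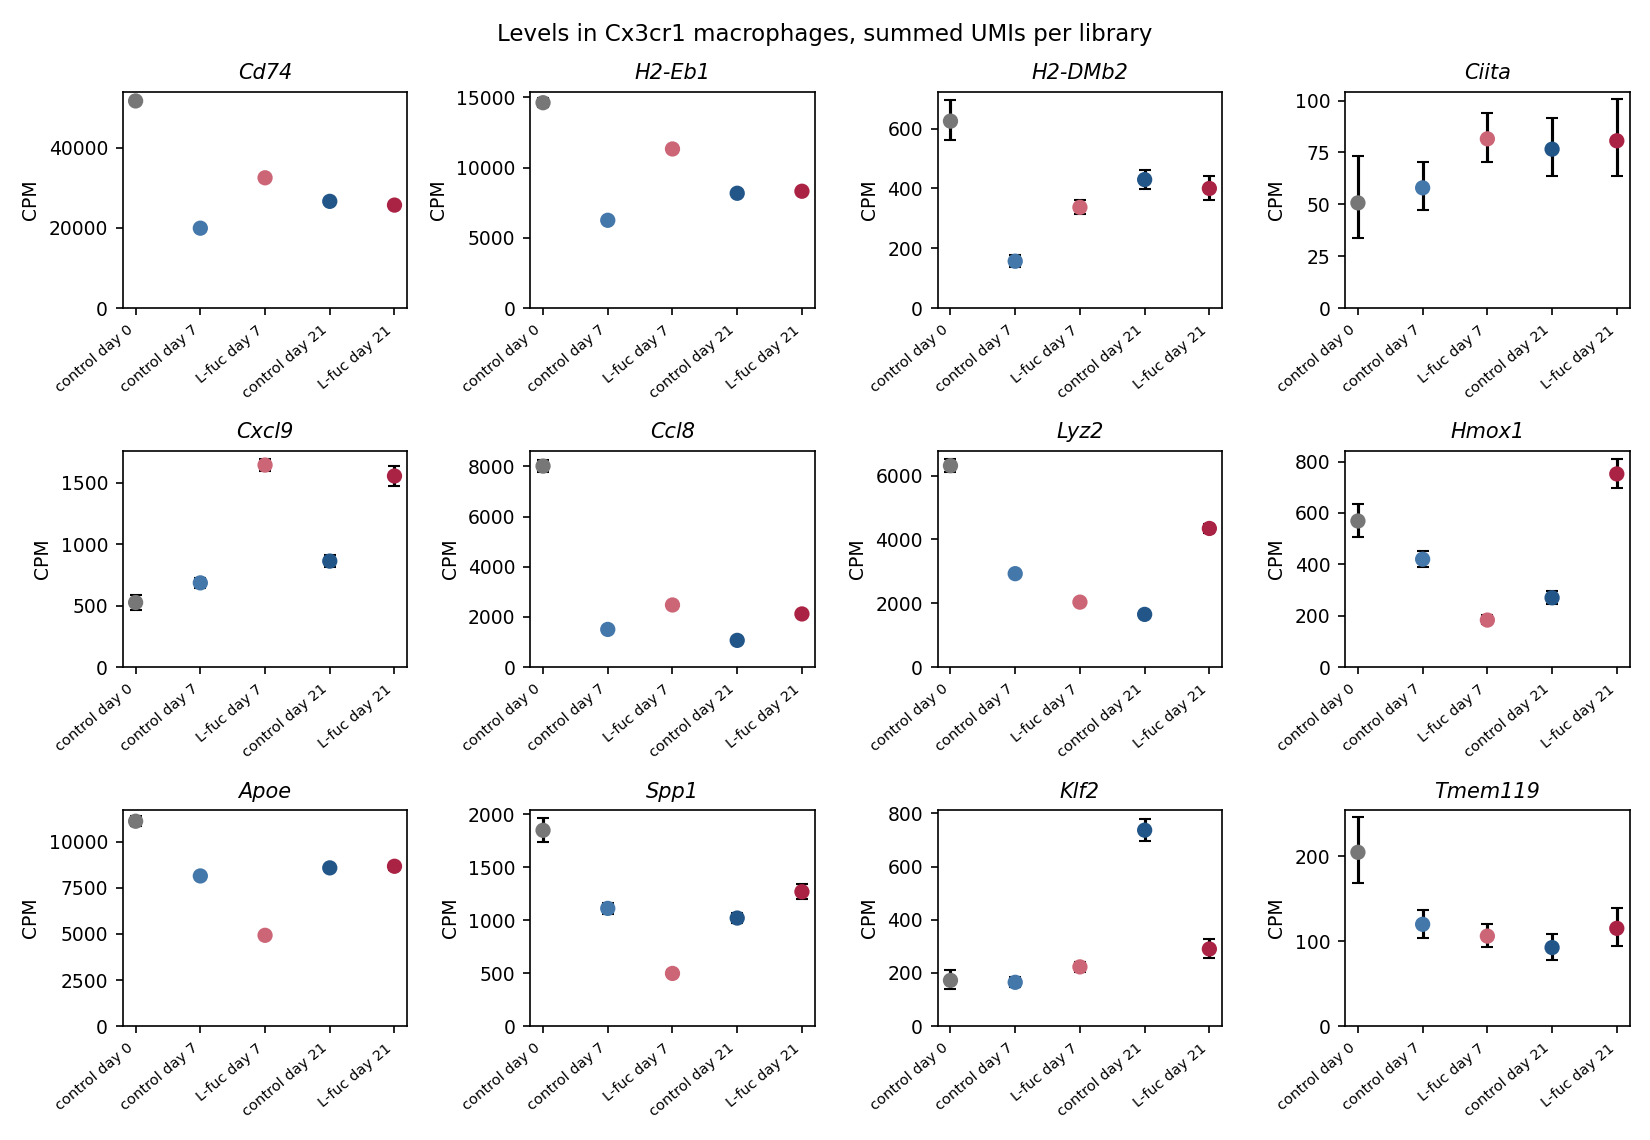
Levels of 12 genes in Cx3cr1 macrophages by library, in CPM of the summed UMIs with 95% exact Poisson intervals that cover counting error only. Cd74, H2-Eb1 and H2-DMb2 are highest at day 0 and lowest at control day 7, Cxcl9 is higher in both L-fuc libraries than in the control of the same day, and Klf2 stands out at control day 21 with 737 CPM.

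Across all genes, L-fuc over control at day 7 gave 80 genes at least 2-fold higher (0.915% of the genes measured) and 758 at least 2-fold lower (8.67%), 838 in all (9.58%). The split leaned to lower genes, and it moved with the scaling and the barcodes kept: 194 higher and 447 lower with TMM scaling, 45 and 1227 with scaling to the identity genes, 80 and 285 with C1q at least 1% of UMIs, and 235 and 317 without the tumor barcodes. The lowest ratios were those of Hist1h1b, Klk10, Dmd, Retnla, Pmp2, Col1a1, Sh3d19 and Ptn. Of these, Col1a1 is a fibroblast collagen, Pmp2 and Ptn are genes of glia and neural crest, and Retnla had 113 UMIs in only 4 barcodes at control day 7. The highest ratios were Ighv5-17, Igkv1-110, Gzmb, Igha, Gzma, Ly6i, Ly6a and Serpinb6b. Ighv5-17 had 166 of its 170 UMIs in 1 barcode, and Gzma and Gzmb are granzymes of cytotoxic lymphocytes.

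Ly6a (Sca-1), a GPI-anchored gene induced by interferon, was spread more widely. It had 12, 25, 323, 48 and 97 UMIs in 5, 14, 84, 13 and 7 barcodes, and the largest barcode held 34 of the 323 at L-fuc day 7 but 82 of the 97 at L-fuc day 21. L-fuc over control at day 7 was 3.24 (2.70 to 3.94) on the log2 scale and between 3.03 and 4.78 over the alternatives.

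Among the interferon-stimulated genes, 17 of 20 were higher with L-fuc at day 7, 3 of them at least 2-fold (0.915% of all genes were). The list median was 0.33, beside −0.21 over all genes and 0.21 over the 13 macrophage identity genes. Cxcl9, an interferon-gamma induced chemokine that draws CXCR3-bearing T cells, was at 525, 685, 1642, 862 and 1553 CPM, so both L-fuc libraries were above all 3 control libraries. Its ratio was 1.26 (1.17 to 1.36) at day 7, between 1.05 and 1.51 over the alternatives, and 0.85 (0.74 to 0.96) at day 21, where it was 0.08 with barcodes weighted equally. The guanylate binding protein gene Gbp2 was at 58.0, 50.01, 111, 69.6 and 110 CPM. Its ratio at day 7 was 1.14, and 0.56 without the tumor barcodes. Zbp1, a sensor of Z-form nucleic acid, was at 72.5, 55.1, 116, 78.5 and 74.4 CPM. The day 7 ratio of Zbp1 was 1.07, and 0.83 without the tumor barcodes and 0.86 with C1q at least 1% of UMIs. With scaling to the identity genes Gbp2 was at 0.93 and Zbp1 at 0.86, and with TMM scaling they were at 1.40 and 1.32. Isg15 and Ifit2, genes typical of type I interferon, differed by 0.09 and 0.17 with intervals that included 0. MHC class I presentation genes were higher in 13 of 17 cases with a median of 0.30, beside 0.21 over the identity genes, and none at least 2-fold.

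Chemokine genes were split, with 10 of 15 higher at day 7. Their median was 0.38, beside −0.21 over all genes and 0.21 over the macrophage identity genes. Ccl5, a T cell and monocyte attracting chemokine, was at 326, 185, 616, 36.4 and 126 CPM, higher with L-fuc on both days with log2 ratios of 1.73 (1.13 with C1q at least 1% of UMIs) and 1.77, while NK and T cells also make it. Ccl8, a monocyte-attracting chemokine, was at 8010, 1504, 2478, 1068 and 2121 CPM, with log2 ratios of 0.72, which was 0.03 without the tumor barcodes, and 0.99. At day 0 1 barcode held 1962 of its 4422 UMIs.

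Genes of lipid handling lay near all genes at day 7, and below the macrophage identity genes, which had a median of 0.21. Of 17 measured, 14 were lower and 3 higher with a median of −0.28, beside −0.21 over all genes, and 2 were at least 2-fold lower, beside 8.67% of all genes. Spp1 (osteopontin) was at 1848, 1111, 498, 1020 and 1268 CPM, and L-fuc over control was −1.16 (−1.27 to −1.05) at day 7, between −1.37 and −0.91 over the alternatives, and 0.31 at day 21. The fatty acid binding protein gene Fabp5 was at 156, 192, 80.3, 54.9 and 124 CPM, lower at day 7 by −1.25 and higher at day 21 by 1.16 on the log2 scale (−2.10 and 1.87 without the tumor barcodes). Apoe, the apolipoprotein of macrophage lipid export, was at 11102, 8138, 4923, 8576 and 8663 CPM, with ratios of −0.73 and 0.01. L-fuc day 7 was the lowest library for both Spp1 and Apoe.

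The heme and oxidant genes had 4 of 13 members at least 2-fold lower at day 7, beside 8.67% of all genes, and a median of −0.22, beside −0.21 over all genes. Hmox1, which breaks down heme, was at 569, 420, 183, 270 and 752 CPM and had opposite ratios on the 2 days, −1.19 at day 7 (−0.45 without the tumor barcodes) and 1.47 at day 21 (0.44 when each barcode weighed the same). Red cell RNA also differed between these libraries, and its part in the Hmox1 levels was not tested. Fcrls, a gene of microglia and resident macrophages, was at 228, 182, 48.5, 178 and 136 CPM, so L-fuc day 7 was the lowest library, with a ratio of −1.90 (−2.23 to −1.59) at day 7 that was −1.25 without the tumor barcodes. Of the 16 microglia-type genes measured at day 7, 2 were at least 2-fold lower (8.67% of all genes were), Fcrls and Sparc, the latter also a gene of the tumor cells. Hypoxia and glycolysis genes were at least 2-fold different in 0 of 20 cases, with a median of −0.23 that was close to that of all genes. Lysosome genes were so in 0 of 21, with a median of 0.17. The macrophage identity genes had a median of 0.21.

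Genes of fucose use were of interest because of the treatment. Of 14 such genes, 10 were measured at day 7, 5 higher and 5 lower with a median of 0.03, and 9 at day 21 with a median of 0.07. Slc35c1, the transporter of GDP-fucose into the Golgi, was at 9.06, 8.53, 8.16, 15.3 and 18.9 CPM, Fuca1, the lysosomal fucosidase, at 158, 118, 127, 142 and 149 CPM, and Fut8, which adds core fucose to N-glycans, at 10.9, 22.2, 10.7, 17.9 and 18.9 CPM. Fut8 was the only gene of the list at least 2-fold apart, −1.01 (−1.83 to −0.29) at day 7, and 0.07 at day 21. This is 1 of the 10 measured at day 7, near the 9.58% of all genes that were at least 2-fold apart. At day 7 it was under 2-fold with TMM scaling (−0.76) and with C1q at 1% or more of UMIs (−0.66). These levels are low, and differences within such an interval were not detectable at this depth.

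Other lists were also measured at day 7, when the median over all genes was −0.21 and that over the 13 macrophage identity genes 0.21. Fc receptor genes were higher in 6 of 8 cases with a median of 0.23, Toll-like receptor genes in 9 of 13 with a median of 0.32, checkpoint and inhibitory genes in 10 of 12 with a median of 0.21, and genes for the uptake of dying cells in 7 of 14 with a median of 0.01. Transcription factor genes were higher in 13 of 19 cases with a median of 0.27, and 0 were at least 2-fold apart. Monocyte-derived genes were lower in 8 of 12 cases with a median of −0.25, close to that of all genes, and alternative activation genes in 8 of 10 with a median of −0.52. Inflammatory cytokine genes outside the rule were higher in 7 of 8 cases, 2 at least 2-fold (0.915% of all genes were), with a median of 0.57. Il18 and Ptgs2, at 1.11 and 1.07, were at 0.90 and 0.86 with scaling to the identity genes. With C1q at least 1% of UMIs both were at 0.68, and with TMM scaling they were at 1.36 and 1.33. Without the tumor barcodes Ptgs2 was at 0.14, and Il1rn turned from 0.67 to −0.65. Chemokine receptor genes were higher in 5 of 7 cases with a median of 0.44. Without the tumor barcodes Ccr2 went from 0.80 to −0.16 and Cxcr4 from 0.65 to 0.09, while Cmklr1 went from 0.65 to 1.00. In the Toll-like receptor list Tlr1 went from 1.01 to 0.26 and Irak4 from 0.67 to −0.48.

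**Figure D4:**
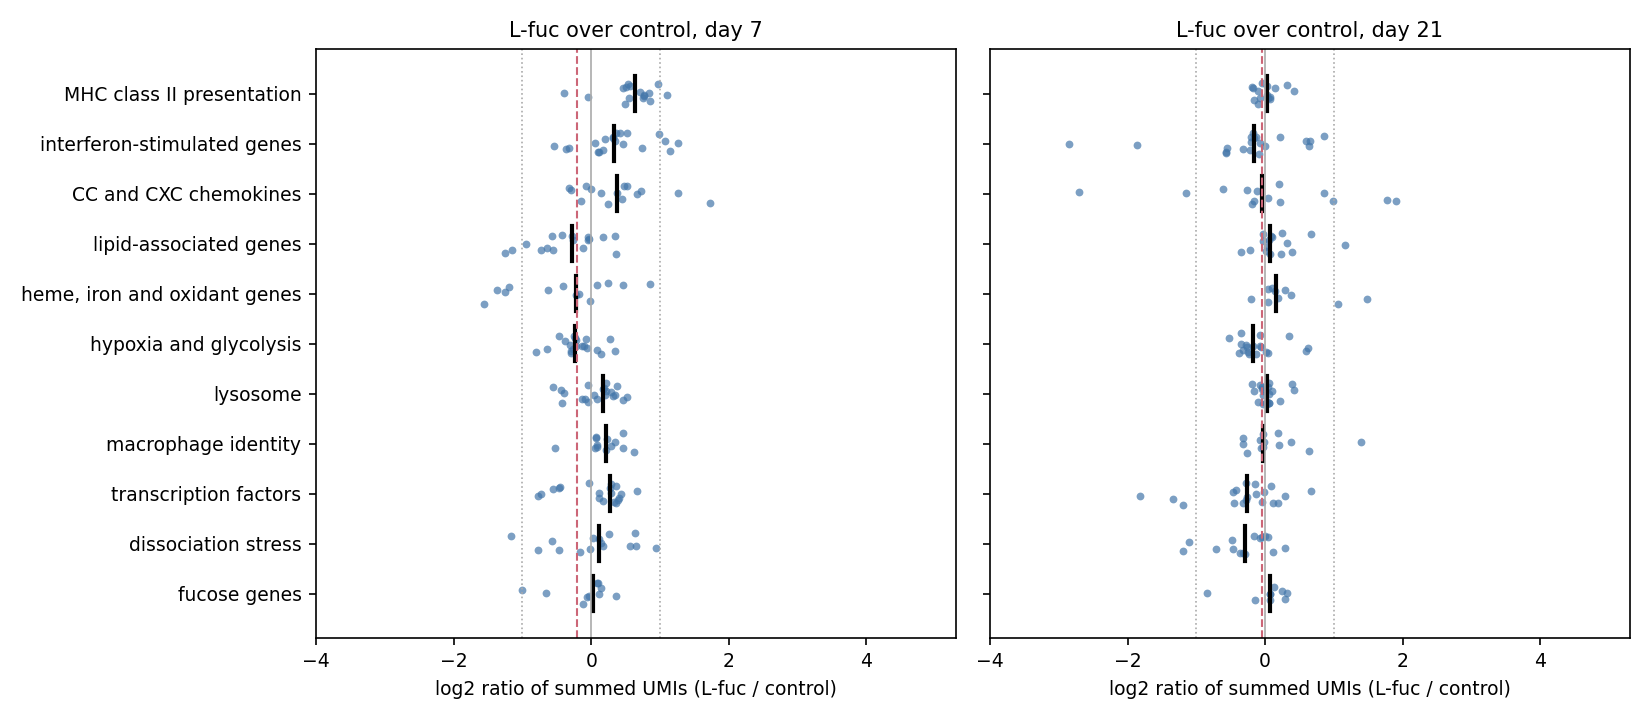
L-fuc over control log2 ratios in Cx3cr1 macrophages at day 7 and day 21 for 11 gene lists. Each point is a gene with at least 30 UMIs in the pair, black bars are list medians, the dashed red line is the median of all genes (−0.21 and −0.04) and the dotted lines mark 2-fold; the class II median is 0.63 at day 7 and 0.02 at day 21.

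At day 21, L-fuc over control gave 90 genes at least 2-fold higher (1.3% of 6944 measured) and 134 lower (1.93%), 224 in all (3.23%). The 8 highest ratios were all immunoglobulin or plasma cell genes (Igkv6-13, Ighv1-82, Igkv1-122, Jchain, Igkc, Iglv1, Igkv12-44 and Igkv1-135), and Igkv12-44 was spread over 25 barcodes. Of the 8 lowest, 5 were red cell genes (Hba-a1, Hbb-bs, Hbb-bt, Hba-a2 and Alas2). The remaining lowest genes were Mgp, Bgn and Tagln, stromal genes. The split between higher and lower genes depended on the setting. With each gene's largest barcode left out the counts were 68 higher and 191 lower, with each barcode weighed the same 269 and 245, and with a minimum of 100 UMIs in the pair 32 and 21.

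Transcription factor genes were mostly lower with L-fuc at day 21, 14 of 19 with a median of −0.27, beside −0.04 over all genes, and 3 were at least 2-fold lower, beside 1.93% of all genes. Klf2, a factor known from quiescent T cells and endothelium, was at 172, 165, 223, 737 and 290 CPM, so control day 21 stood apart from the other 4 libraries. L-fuc over control was −1.34 (−1.54 to −1.15) at day 21 and 0.43 at day 7. The related Klf4 was at 38.0, 31.3, 41.2, 42.8 and 11.52 CPM (−1.82 at day 21, −1.07 with barcodes weighted equally), and the immediate early factor Nr4a1 at 194, 192, 112, 340 and 148 CPM, with ratios of −0.78 and −1.20. Egr1, another immediate early gene, was lower on both days by −1.16 and −1.11, and at day 21 lay between −1.19 and −0.52 over the alternatives. Such genes also answer to tissue dissociation, and the dissociation stress list as a whole was lower with L-fuc at day 21 in 12 of 15 cases with a median of −0.29.

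Complement genes other than the C1q genes of the rule were higher with L-fuc at day 21 in 8 of 8 cases with a median of 0.44 (0.19 without the tumor barcodes), beside −0.04 over all genes. C1qa was lower, from 8693 to 8102 CPM, as were C1qb and C1qc, and with them the list summed to 23512 CPM in control and 22889 CPM with L-fuc. C3, the central component, was at 138, 89.2, 141, 28.1 and 174 CPM, a log2 ratio of 2.60 (2.14 to 3.14) that was 1.77 without the barcode that held 81 of its 166 UMIs at L-fuc day 21. The lysozyme gene Lyz2 was at 6313, 2930, 2038, 1654 and 4346 CPM, higher with L-fuc at day 21 by 1.39 (1.32 to 1.47) and lower at day 7 by −0.52. The monocyte chemokines Ccl2 and Ccl7 were lower with L-fuc at day 21, by −1.15 and −2.70, where Ccl7 went from 99.6 to 14.7 CPM. Ifit1 and Ifit3 were also lower, by −1.86 (−2.73 to −1.33 over the alternatives) and −2.85 (−3.62 to −1.84), and the interferon-stimulated list was lower in 15 of 20 cases with a median of −0.17. Il12b, a subunit of IL-12 and IL-23, had 0, 2, 17, 2 and 63 UMIs, of which 1 barcode held 40 at L-fuc day 21.

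The control libraries gave the course in time, with the control day 7 library shared by both steps and by the day 7 comparison above. Control day 7 over day 0 gave 1789 genes at least 2-fold higher (24.9% of 7187) and 183 lower (2.55%), 1972 in all (27.4%). The split was 1295 and 455 with TMM scaling, 3664 and 22 with scaling to the identity genes, and 248 and 119 without the tumor barcodes. Signs of RNA quality differed as well. The median mitochondrial share of Cx3cr1 macrophages was 0.26% at day 0 and 2.99% at control day 7, and that of T cells 0.28% and 1.95%. In Cx3cr1 macrophages Malat1 and Neat1 were higher at control day 7 by 1.96 and 2.49. The part of RNA quality in this comparison was not tested. Class II genes were lower at day 7 in 14 of 15 cases, 6 of them at least 2-fold, with a median of −0.67, but when libraries were scaled to the identity genes, which themselves had a median of −0.70, the class II median was 0.03. H2-Eb1 was lower by −1.22, between −1.50 and −0.52 over the alternatives, and Cd74 by −1.37, between −1.65 and −0.67. Lysosome genes were lower in 20 of 21 cases with a median of −0.68, which was 0.02 after the same scaling.

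The genes lowest at control day 7 against day 0 included Cbr2, Folr2 and Cd300ld3. The microglia-type and resident list summed to 12054.5 CPM at day 0 and 7267 CPM at control day 7. The macrophage identity genes went from 52326 to 26908 CPM, and a fall particular to resident genes was not tested. Cbr2 had 60 UMIs at day 0, 46 of them in 1 barcode, and Folr2, the folate receptor of perivascular macrophages, had 53, 27 of them in 1 barcode. Cd300ld3 rested on more barcodes, with 102 UMIs in 33 of 43 barcodes at day 0 and 56 UMIs in 47 of 265 at control day 7, a log2 ratio of −2.51 that lay between −2.78 and −1.80 over the alternatives. Selenop, a plasma selenoprotein made by resident macrophages, was at 1166, 311, 322, 448 and 585 CPM (−1.90, −1.20 after scaling to the identity genes). The transcription factor genes Zeb2 and Maf went the other way, higher at control day 7 by 1.27 and 1.46 (1.97 and 2.16 after that scaling). The 8 highest ratios were Hbb-bs, Hba-a1, Ccn1, Lama4, Hbb-bt, Prss23, Hspg2 and 1 gene not named here, and they hold hemoglobin and basement membrane genes.

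Control day 21 over control day 7 gave 244 genes at least 2-fold higher (2.95% of 8270) and 887 lower (10.7%), 1131 in all (13.7%), with 404 and 699 after TMM scaling, 75 and 1942 after scaling to the identity genes, and 430 and 287 without the tumor barcodes. The dissociation stress list was higher in 14 of 15 cases, 8 at least 2-fold, with a median of 1.00 that was 0.56 after scaling to the identity genes. Klf2 was higher by 2.16 (1.72 to 2.85 over the alternatives), Dusp1, a phosphatase that ends MAP kinase signals, by 2.03, and Zfp36, which shortens the life of cytokine mRNAs, by 1.67. The chemokine genes Ccl3 and Ccl4 were higher by 1.55 and 1.57, and Il1b, at 1002, 411, 797, 1525 and 1302 CPM, by 1.89 (1.18 without the tumor barcodes). Class II genes were higher in 15 of 15 cases with a median of 0.39, which was 0.00 without the tumor barcodes and −0.05 after scaling to the identity genes.

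Asb2, a subunit of a ubiquitin ligase, had 27, 54, 111, 298 and 96 UMIs, which were 48.9, 30.7, 47.7, 190 and 100.5 CPM, and control day 21 was above control day 7 by 2.61 (1.98 to 2.77 over the alternatives). Fcrl5, an Fc receptor-like gene, had 14, 28, 42, 186 and 66 UMIs, and Klra17, a Ly49 family lectin of myeloid cells, had 27, 34, 100, 175 and 58 UMIs, with ratios of 2.85 (2.14 to 4.50 over the alternatives) and 2.49 (1.80 to 2.83). At L-fuc day 21 Klra17 was at 60.7 CPM, near its 48.9 CPM at control day 0. The Fc receptor gene Fcgr4 was higher by 1.36 at control day 21 than at control day 7. The monocyte list was lower, with 6 of 10 genes at least 2-fold lower, beside 10.7% of all genes, and a median of −1.60, beside −0.13 over all genes, among them Fn1 (−3.65) and S100a6 (−2.70, −1.45 without the tumor barcodes), both of which tumor and stromal cells also express.

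Genes that mark microglia were partly present. Tmem119, a microglia marker, was at 205, 120, 106, 92.5 and 115 CPM, with at least 1 UMI in 74.4%, 43.8%, 47.4%, 42.4% and 58.2% of barcodes, and the purinergic receptor gene P2ry12 was at 43.5, 12.5, 17.6, 22.98 and 19.9 CPM. Sall1, the factor that fixes microglia identity, and the fructose transporter gene Slc2a5 and Crybb1 had 0 UMIs in all 5 libraries, which allows at most 5.43 CPM at day 0 and 1.29 CPM at L-fuc day 7 for counting error. Vsig4 was at 0 as well, Timd4 was at 19.9, 4.55, 5.15, 3.83 and 2.09 CPM, and the monocyte gene Ly6c2 was at 12.7, 15.4, 12.5, 2.55 and 56.6 CPM.

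The next question was how Cx3cr1 macrophages differ from the other macrophage classes of the same tumors. Here the 5 libraries served as replicates, UMIs were summed per class and library, and edgeR's quasi-likelihood test was run with the library as a block over all genes outside the rule, with Benjamini-Hochberg adjustment and a threshold of 0.05. The classes were sorted on genes of the same barcodes and differed in depth, so the tests describe what went together with the sorting genes. The Cx3cr1-undetected barcodes were shallower, with medians of 4036, 4387, 4837.5, 4052.5 and 4303 UMIs, and they carried less C1q, 1.08%, 0.755%, 0.568%, 1.41% and 0.955% of UMIs against 2.87%, 1.39%, 1.90%, 2.04% and 1.93%.

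Against Cx3cr1-undetected macrophages, 357 genes were higher in Cx3cr1 macrophages (4.48% of 7973 tested) and 168 lower (2.11%), 525 in all (6.58%). The count was 10 without the library block, and 170, 251 and 299 with the L-fuc day 21, L-fuc day 7 or control day 7 library left out. When C1q had to make at least 1% of UMIs it was 82 of 4858 tested in 4 libraries, 44 higher and 38 lower. Macrophage identity genes outside the rule were themselves higher in 8 of 13 cases and lower in 0, with a median log2 fold change of 0.76. Class II genes were higher in 12 of 15 cases and lower in 0, with a median log2 fold change of 0.98. H2-Eb1 was at 6585, 2833, 3200, 2989 and 2768 CPM in the undetected barcodes, below Cx3cr1 macrophages in each library, with a log2 fold change of 1.49 ± 0.11 (SE, adjusted p = 4.02e-05 by edgeR). Cd74 was higher by 1.37 ± 0.10 (adjusted p = 4.02e-05 by edgeR). Ciita was higher by 1.03 ± 0.20 (adjusted p = 0.0108 by edgeR), though at day 0 the levels were nearly the same, 50.7 and 49.6 CPM. When C1q had to make at least 1% of UMIs in every macrophage barcode, 8 of 14 class II genes were past the threshold in 4 libraries, and 11 of 13 were with all barcodes thinned to 2000 UMIs.

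The shares of all tested genes to set beside the counts of this comparison are 4.48% higher and 2.11% lower. The microglia list had 10 of 15 genes higher and 0 lower, with a median of 1.11. Tmem119 rose by 1.56 ± 0.15 (adjusted p = 0.000292 by edgeR), from 91.0, 42.7, 33.3, 27.1 and 46.6 CPM in the undetected barcodes. P2ry12 rose by 1.47 ± 0.31, and P2ry6, Olfml3 and Tgfbr1 also passed. Lag3, an inhibitory receptor that binds class II, was at 190, 80.7, 71.7, 134 and 158 CPM in Cx3cr1 macrophages. In the undetected ones it was at 45.5, 38.7, 17.0, 27.1 and 49.96 CPM (1.83 ± 0.20, adjusted p = 0.00053 by edgeR). The cyclooxygenase gene Ptgs1 (1.95 ± 0.24) and the phospholipid enzyme gene Lpcat2 (1.95 ± 0.20) were also higher, as was the Toll-like receptor gene Tlr12 (2.27 ± 0.41), and 7 of 13 Toll-like receptor genes rose. Lysosome genes had 12 of 21 higher and 0 lower with a median of 0.60, 3 of 21 when C1q had to make at least 1% of UMIs.

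Lower in Cx3cr1 macrophages were hypoxia and glycolysis genes, 14 of 19 (2.11% of all genes tested were lower) and 0 higher, with a median of −0.56, and 10 of 18 under the C1q limit of 1%. Slc2a1, the glucose transporter GLUT1, fell by 0.89 on the log2 scale, from 323, 190, 162, 300 and 353 CPM to 85.1, 122, 130, 165 and 139 CPM. Hmox1 fell by 0.96 and the oxidant defence gene Srxn1 by 1.86. Among the lowest genes were Xcl1 (−3.32), Cd24a, Pglyrp1, Gimap4 and the NK cell genes Ncr1 (−2.14) and Nkg7 (−2.06), so markers of lymphocytes moved with this comparison. Xcl1, a chemokine of NK and CD8 T cells, was at 240, 90.1, 123, 7.73 and 6.66 CPM in the undetected barcodes and at 1.81, 10.8, 18.03, 0 and 1.05 CPM in Cx3cr1 macrophages. The part of lymphocyte RNA in the other differences was not tested. Of 20 interferon-stimulated genes, 0 passed (median −0.02), and Ccl8 (adjusted p = 0.632 by edgeR) and Cxcl9 (adjusted p = 0.101 by edgeR) did not.

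Against inflammatory macrophages, with medians of 14524.5, 7426, 12329, 13883 and 17637.5 UMIs, 144 genes were higher in Cx3cr1 macrophages (1.77% of 8130) and 523 lower (6.43%), 667 in all (8.2%), with 433 when the L-fuc day 7 library was left out. Without the library block 2 were higher and 162 lower, and DESeq2 with its own size factors called 34 higher and 330 lower. The lower genes included many that go with the genes of the sort: inflammatory cytokine genes in 9 of 10 cases, dissociation stress genes in 14 of 15 (median −1.12), hypoxia genes in 17 of 19 (−0.49) and chemokine genes in 8 of 15. Ifnb1, the interferon-beta gene, was at 12.7, 9.09, 11.2, 26.8 and 19.9 CPM against 85.8, 286, 355, 303 and 277 CPM, and fell by 4.28. Ifit1 fell by 3.73, Acod1, which makes itaconate, by 3.46, Cxcl2 by 4.09 and Vegfa by 1.63.

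Higher than in inflammatory macrophages were 9 of 15 class II genes, with 3 lower and a median of 0.30, beside 1.77% higher and 6.43% lower over all genes tested. Ciita was higher by 1.03 ± 0.16 (adjusted p = 0.000382 by edgeR), from 9.20, 22.2, 50.4, 42.8 and 23.6 CPM to 50.7, 58.0, 81.6, 76.6 and 80.6 CPM. H2-Aa rose by 0.41, H2-Eb1 by 0.35 (adjusted p = 0.00178 by edgeR) and Cd74 by 0.21 (adjusted p = 0.0424 by edgeR). P2ry12 rose by 0.77, while Tmem119 (0.11, adjusted p = 0.691 by edgeR) did not pass. Of the chemokine genes, Ccl8 (1.00, adjusted p = 0.0061 by edgeR) and Cxcl9 (0.57) were higher, but neither passed with DESeq2 (adjusted p = 0.148 and 0.108). Ciita was thus above both the Cx3cr1-undetected and the inflammatory class at the threshold, and the comparisons share the same Cx3cr1 macrophage sums.

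**Figure D5:**
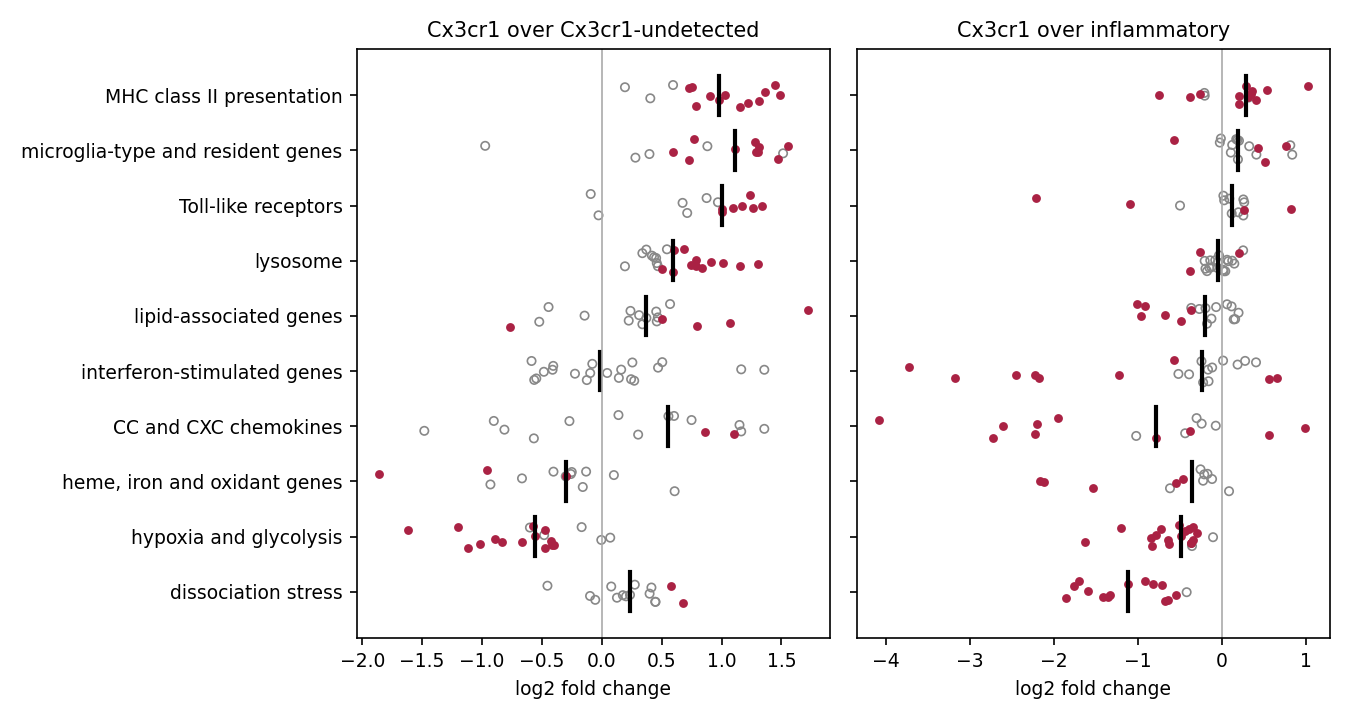
Log2 fold change of Cx3cr1 macrophages over Cx3cr1-undetected and inflammatory macrophages for 10 gene lists. Each point is a gene, filled red at an edgeR adjusted p under 0.05 and open grey otherwise, and bars are list medians; the hypoxia medians lie below 0 in both panels, at −0.56 and −0.49.

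Within a library Cx3cr1 macrophages were not uniform. After thinning to 2000 UMIs, the spread of each gene over barcodes was given by the Fano factor (variance over mean, 1 for pure counting noise) in the 4 libraries with at least 50 barcodes. Over 954 genes the median was 1.20. The highest medians over libraries were 57.5 for Gm42418, 34.1 for Cd74, 27.2 for Apoe, 21.7 for Malat1, 20.6 for Ccl8, 15.9 for Fth1, 13.4 for Ccl4, 12.9 for Cxcl2, 12.1 for H2-Eb1 and 11.4 for H2-Aa. Cd74, H2-Eb1 and H2-Aa, which are class II genes, were also among the most abundant of the group, and the Fano factors were not set against abundance. Gm42418 and Malat1 are noncoding transcripts that vary with RNA quality.

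The class II genes spanned a wide range from barcode to barcode. They summed to a median of 185, 66, 120, 73 and 106 of 2000 UMIs, and from the lowest to the highest decile the sum ran from 13.9 to 200.3 at control day 7 and from 22 to 253.8 at L-fuc day 7. Across barcodes of 1 library, which are not independent samples and share a fixed total, Spearman's rho between the class II and lysosome sums was 0.59, 0.71, 0.49 and 0.51 in the 4 libraries in the same order, over 260, 215, 143 and 66 barcodes. The lists share 3 genes (Ctsl, Ctss and Lgmn), and without them rho was 0.45, 0.62, 0.35 and 0.35. Between the class II sum and the lipid genes, which share none, it was 0.53, 0.58, 0.51 and 0.37, and −0.33, −0.31, −0.26 and −0.33 with the hypoxia genes. With the tumor markers it was −0.23 and −0.29 at day 7, and −0.07 and −0.02 at day 21.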

How the data were processed

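The authors made the UMI counts with Cell Ranger on the mouse genome mm10 (version 3.0 per the submitters' processing notes, 7.1.0 per the file headers), and deposited 1 barcode by gene matrix and 1 list of T cell receptor (TCR) contigs per library. The study removed low-quality cells and doublets itself; the deposited matrices were filtered here by the limits given above. UMI counts were summed over Cx3cr1 macrophages per library. Between conditions, with 1 pooled library each, log2 ratios of CPM were computed with a pseudocount of 1 UMI for genes with at least 30 UMIs in the pair, with exact 95% intervals for counting error, and 2-fold marked a difference. T cells were barcodes with at least 3 Cd3 and at most 2 C1q UMIs. A value of 0 was taken to allow up to 3 counts.

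Between classes, sums of at least 20 barcodes were tested with edgeR 4.0.16 (quasi-likelihood, TMM scaling, filterByExpr, library as block) in R 4.3.3, without the genes of the rule. The pairing is that both sums come from the same pooled mice and library. The test was checked on simulated counts with known changes, where the share of false calls in both comparisons was above the nominal share of the threshold, so single calls near it are less certain.

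The text names the genes of the rule and the markers, members of the gene lists, the 8 highest and 8 lowest ratios per condition comparison (leaving out mitochondrial and ribosomal genes and unnamed models), the 10 highest and 10 lowest fold changes per class comparison that went the same way in every library, and the 10 highest median Fano factors; not all are printed. Members and lists were chosen with earlier results of these data known. The mice of a library were pooled, so p-values measure how the class difference within a library varies over 5 pools that differ in time and treatment. Python 3.11.15 with scipy 1.17.1 and scanpy 1.11.5 (Scrublet) was used. A limit of the rule, a class comparison and a few genes are not reported here. No column of samples was left unused.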

Additional observations from a re-analysis of the deposited data

Results flagged for a closer look

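T cell receptor contigs, which the comparisons did not use, were found in Cx3cr1 macrophages of 1 library. At control day 7, 4 of 265 barcodes (1.51%, exact binomial interval 0.413 to 3.82) carried a productive contig, although the rule kept out every barcode with a Cd3 UMI. The other libraries had 0 of 43, 0 of 215, 0 of 144 and 0 of 67, which allow shares of up to 6.98%, 1.40%, 2.08% and 4.48%, in the order day 0, L-fuc at day 7, and control and L-fuc at day 21. In T cells the share was 86.0%, 70.7%, 71.4%, 84.6% and 63.6%. The source of the 4 contigs was not tested.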

How the results depend on the processing

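Removing barcodes with tumor RNA, asking for C1q at 1% of UMIs, scaling to identity genes and leaving out each gene's largest barcode were alternatives chosen after seeing the data. The share of macrophage barcodes at control day 7 was 21.3% with a C1q minimum of 5, 16.3% with a Cx3cr1 minimum of 2 and 34.7% with C1q at 1%; at L-fuc day 7 it was 20.6%, 17.0% and 32.3%, and 18.7% with a gene minimum of 500; at control day 21 it was 21.6% with the Cx3cr1 minimum and 24.5% with the gene minimum. Cx3cr1 detection thinned to 1000, thinned to 4000 and not thinned was 20.9%, 51.6% and 59.7% at day 0, 22.2%, 41.1% and 54.8% at control day 7, 14.9%, 40.6% and 50.8% at L-fuc day 7, 24.8%, 55.8% and 69.7% at control day 21, and 30.7%, 65% and 73.2% at L-fuc day 21.

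Counts of 2-fold genes rested on the UMI minimum. At minima of 10 and 100 they were 1567 and 250 (L-fuc day 7), 805 and 53 (L-fuc day 21), 3319 and 559 (control day 7 over day 0), and 2038 and 380 (control day 21 over day 7). Without tumor barcodes they were 552, 367 and 717 for the comparisons other than L-fuc day 21, with C1q at 1% 365, 873 and 541, and with identity scaling 1272, 3686 and 2017. L-fuc day 21 gave 143 with a pseudocount of 5 and 514 with barcodes weighted equally.

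Class comparisons without the library block as replicate block gave 10 (Cx3cr1-undetected) and 164 (inflammatory) genes, and thinned to 2000 UMIs 276 and 337. DESeq2 gave 364 (inflammatory), the C1q limit of 1% gave 82 (Cx3cr1-undetected), and Cx3cr1-undetected gave 1127 with no low count filter and 286 with a C1q minimum of 20. Leaving out 1 library gave 170 to 411 and 433 to 570.

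Some genes turned direction. At L-fuc day 7 S100a8 and S100a9 were at 0.46 and 0.84 with a C1q minimum of 5, and Igha at −0.024 without its largest barcode. At L-fuc day 21 Sparc was at 0.77 with barcodes weighted equally and Mgl2 at −0.56 without its largest barcode. F13a1 at control day 7 over day 0 was at 0.031 and 0.18 under these settings. Control day 21 over day 7, Hbb-bs was at −0.070 and −6.34, and Hba-a1 and Hba-a2 at −5.47 and −4.45 without the largest barcode. Against Cx3cr1-undetected macrophages with C1q at 1%, Fcer1g was at −0.068 and Fn1 at 0.57. The Fano factor of Gm42418 at 4000 UMIs was 110.3. Causes were not tested. Under the other settings 105 values of shares, counts and Fano factors stayed close to those reported, beside 56 that moved. Counts of genes were judged on their total, whatever the split into higher and lower genes. The day 0 and L-fuc day 21 libraries held the fewest barcodes, 43 and 67.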
